A study of Rattus norvegicus with 12 samples.

Results

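Marker genes of the non-parenchymal cells of the liver were read out in rats given A-998679, a compound that activates the aryl hydrocarbon receptor (AhR), a transcription factor switched on by small molecules. The markers are a list of 38 genes that define macrophages (10 genes), leukocytes in general (1), endothelial cells (9), stellate cells (11), bile duct cells (4) and lymphocytes (3). A gene was taken where a probe set on the array was annotated to its symbol alone, which held for 35 genes with 42 probe sets of 29176 in all (35 of 13643 genes). Marco, Cdh5 and Sox9 were not analysed here. For the 7 genes with 2 probe sets the one with the higher mean over the 12 rats stands for the gene.

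Livers came from 12 male Sprague Dawley rats, 3 in each of 4 groups, dosed by mouth each day for 5 days with vehicle (10 ml/kg/day of 0.2% HPMC, a cellulose derivative that keeps powders in suspension) or with A-998679 at 30, 100 or 200 mg/kg/day. All rats were fasted overnight before the livers were taken, and their age was not stated. One label field gives the top dose as 300 mg/kg and the others as 200 mg/kg, which is the name used here. RNA of each liver was hybridized to 1 Affymetrix rat RAE230 2.0 array, so that every value is a level in whole tissue, and for every gene below fewer cells of a type and less RNA per cell cannot be told apart. Levels are log2 intensities, and a difference of 1 is a 2-fold change. Medians of the arrays lay between 5.21 and 5.26, and between 12.0% and 12.5% of the values of an array were empty. As a check of the tissue, 11 of 12 listed hepatocyte genes were on the array and each had a value in every rat and a mean above the floor (log2 3.84, the 25th percentile of all values), with a summed intensity of 49662 to 66026 units over the 12 rats.

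The liver's resident macrophages, the Kupffer cells, sit in the sinusoids, the capillaries between plates of hepatocytes, and clear particles and bacterial products from portal blood. Sinusoidal endothelial cells line these capillaries and take up waste molecules through scavenger receptors, and stellate cells lie behind them, store vitamin A and make collagen when activated. AhR is present in many of these cells as well as in hepatocytes, and its best known targets in hepatocytes are enzymes of xenobiotic metabolism. The classes are described apart.

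No marker passed the test at any dose. In limma's fit over all probe sets, 0 of the 35 genes had an adjusted p under 0.05 at 30 mg/kg, where 0.00739% of all probe sets tested were called. The count was also 0 of 35 with 100 mg/kg (background 0.0221%), with 200 mg/kg (background 0.211%) and when the 3 doses were averaged (background 0.061%). With backgrounds this low a count of 0 among 35 genes is near what the whole array gave. At an unadjusted p under 0.05, 2 genes were higher at 30 mg/kg (Cd14 and Pecam1, 5.71% of 35 against 2.39% of all probe sets) and 0 were lower (2.72% of all). At 100 mg/kg the genes were Cd14 and Cd79b (5.71% against 3.18%), with 0 lower (2.8% of all). At 200 mg/kg Cd14 alone was higher (2.86% against 4.39%), with 0 lower (4.34% of all). For the mean of the 3 doses Cd14, Pecam1 and Cd79b were higher (8.57% against 4.01%), with 0 lower (2.76% of all).

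How closely the data bound a change differed among genes. A value in all 12 rats and a mean above the floor were found for 30 of the 35 genes, namely all 9 macrophage genes, Ptprc, 7 of 8 endothelial genes, 10 of 11 stellate cell genes, 2 of 3 bile duct genes and 1 of 3 lymphocyte genes. At 200 mg/kg the differences of these 30 genes from vehicle ran from -0.23 (Spp1) to 0.87 (Dcn), and 26 of the 30 were smaller than 0.5 in size. The 95% interval lay wholly within 1 on either side of no difference, that is within a 2-fold change, for 22, 21 and 22 of the 30 genes in the 30, 100 and 200 mg/kg comparisons and for 27 when the doses were averaged. Its half-width at 200 mg/kg was narrowest for Kdr (0.22), had a median of 0.50 and was widest for Spp1 (1.49). A 2-fold change of Spp1 was thus not detectable with this number of rats, while one of Kdr lay outside the interval of its chosen probe set.

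**Figure D1:**
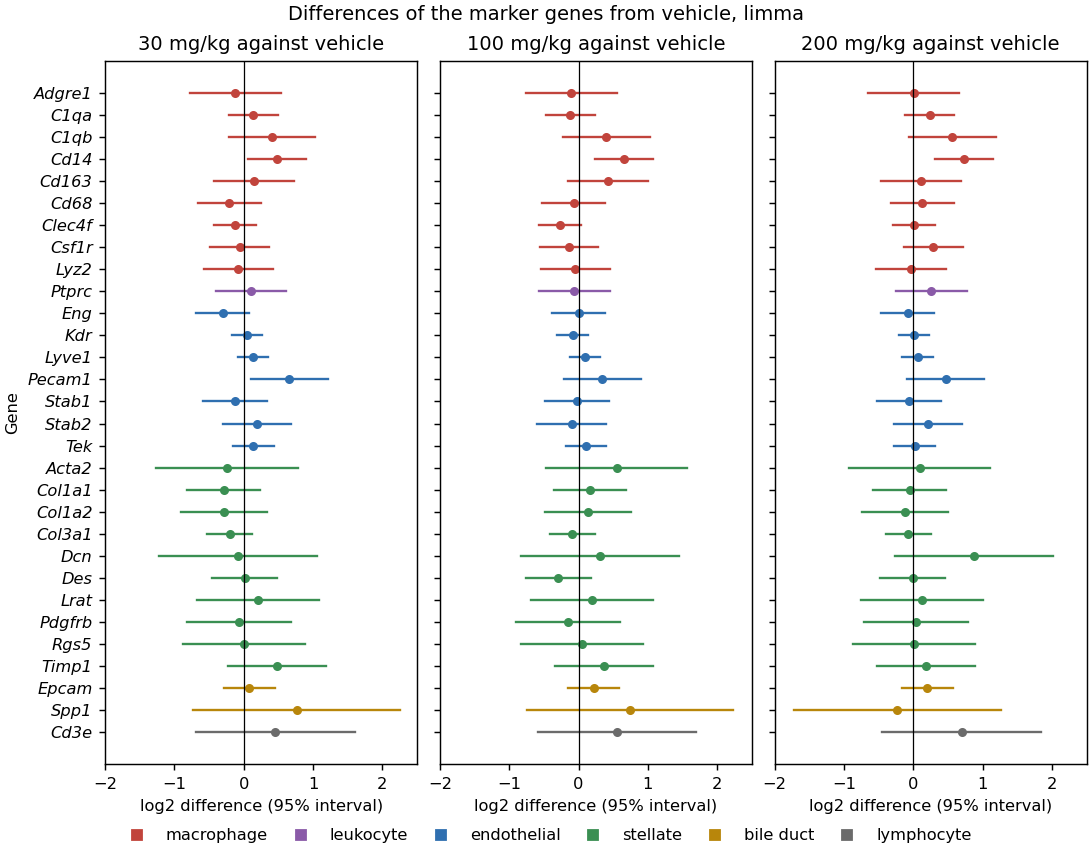
Difference of each of the 30 marker genes from vehicle (horizontal axis, log2, with 95% intervals from limma) at 30, 100 and 200 mg/kg, coloured by cell class. Cd14 is the gene whose interval lies above 0 in all 3 panels, Pecam1 joins it at 30 mg/kg, and the widest interval is that of Spp1.

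Counting rats without a model gave a similar picture. Of the 30 genes, 3 had all 3 rats above all 3 vehicle rats at 30 mg/kg (Pecam1, Tek and Timp1, 10% against 5.07% of all probe sets) and 1 had all below (Col3a1, 3.33% against 5.31%). At 100 mg/kg the genes with all rats above were Cd14, Cd163 and Epcam (10% against 6.91%), with 0 below (6.23% of all). At 200 mg/kg they were Cd14, Pecam1 and, by a very small margin (6.660 in rat 2 against 6.657 in vehicle rat 2), Epcam (10% against 7.97%), with 0 below (7.3% of all). With 30 genes, 10% is 3 genes. The shares of all probe sets cover each one with a value in every rat compared, dim ones included, whereas the 30 genes were filtered by level.

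**Figure D2:**
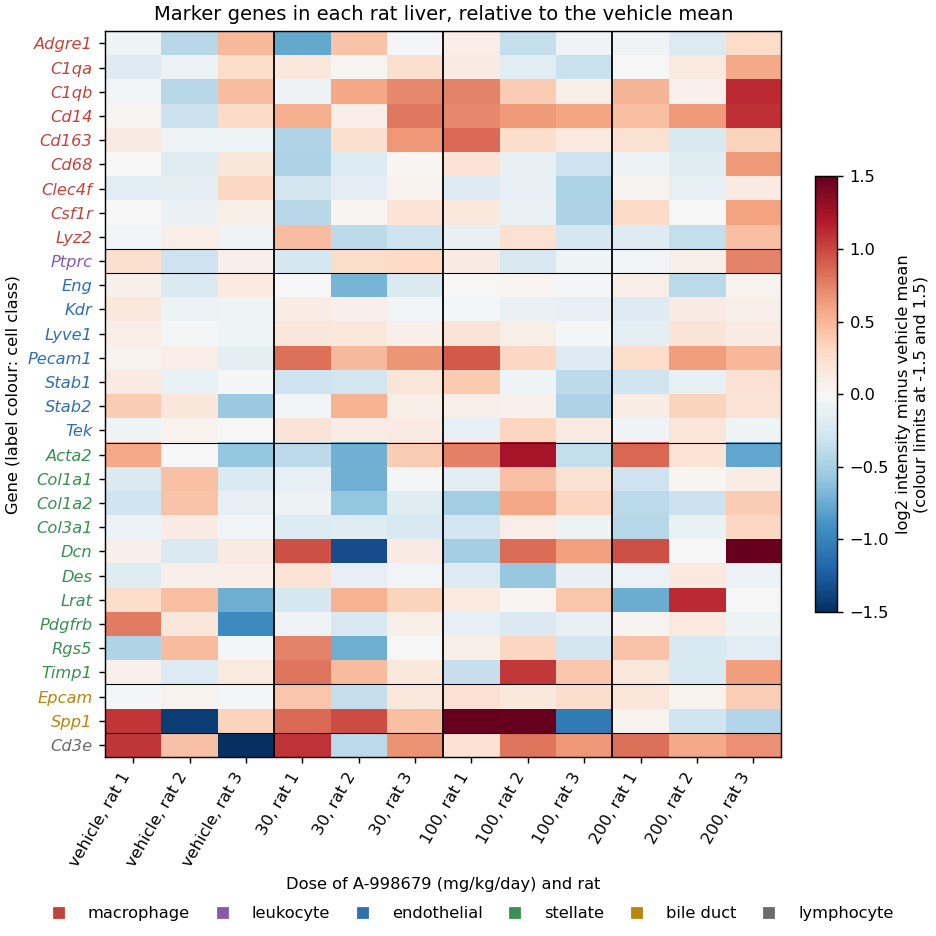
Level of the 30 marker genes (rows, grouped and coloured by cell class) in each of the 12 rats (columns), as log2 intensity minus the vehicle mean of that gene; red is higher and blue lower, and colours end at 1.5 on either side. Cd14 is red in all 9 treated rats, and 200 mg/kg rat 3 is red across most macrophage genes.

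Cd14, the co-receptor through which macrophages sense bacterial lipopolysaccharide and which hepatocytes also make, had the lowest unadjusted p of the macrophage genes at each dose. Its level was 8.86, 8.52 and 9.12 in the vehicle rats, 9.38, 8.94 and 9.62 in the 30 mg/kg rats, 9.55, 9.47 and 9.43 in those given 100 mg/kg and 9.28, 9.47 and 9.93 in those given 200 mg/kg. The 100 and 200 mg/kg rats were all above the vehicle rats, whereas at 30 mg/kg rat 2 lay below vehicle rat 3. Differences from vehicle, from the lowest dose to the highest, were 0.48 (SE 0.19), 0.65 (SE 0.19) and 0.73 (SE 0.19), the last a 1.66-fold difference with a 95% interval from 0.31 to 1.15. Limma's unadjusted p-values were 0.0283, 0.0052 and 0.00238, and its adjusted p-values 0.95, 0.611 and 0.21, so that Cd14 did not pass at any dose. For the mean of the doses the difference was 0.62 (adjusted p = 0.305, limma), and in every fit that left out 1 rat it stayed between 0.46 and 0.76.

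In the other macrophage genes the dose groups mostly overlapped vehicle. C1qb, a chain of the complement component C1q that tissue macrophages secrete, was at 7.55, 7.18 and 8.05 in the vehicle rats, 7.51, 8.18 and 8.31 in the 30 mg/kg rats, 8.34, 7.97 and 7.68 in those given 100 mg/kg and 8.11, 7.66 and 8.71 in those given 200 mg/kg. The groups overlapped at every dose. With 200 mg/kg, where rat 3 was the highest of the 12, the difference was 0.57 (95% interval -0.06 to 1.19, adjusted p = 0.625, limma). For C1qa, a second chain of the same protein, the levels were 8.51, 8.62 and 8.98 in the vehicle rats, 8.86, 8.72 and 8.94 in the 30 mg/kg rats, 8.83, 8.54 and 8.37 in those given 100 mg/kg and 8.70, 8.85 and 9.27 in those given 200 mg/kg. Here too 200 mg/kg rat 3 was the highest of the 12 rats, and the difference at 200 mg/kg was 0.24 (adjusted p = 0.753).

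Csf1r, the receptor for the growth factor that keeps macrophages alive, was at 7.43, 7.31 and 7.51 in the vehicle rats, 7.0, 7.44 and 7.63 in the 30 mg/kg rats, 7.57, 7.32 and 6.95 in those given 100 mg/kg and 7.70, 7.41 and 8.02 in those given 200 mg/kg. Cd68, a glycoprotein of macrophage lysosomes, was at 7.36, 7.17 and 7.52 in the vehicle rats, 6.88, 7.14 and 7.38 in the 30 mg/kg rats, 7.56, 7.24 and 7.04 in those given 100 mg/kg and 7.27, 7.17 and 7.98 in those given 200 mg/kg. In both genes 200 mg/kg rat 3 was again the highest of all 12, 30 mg/kg rat 1 lay among the lowest, and the groups overlapped at each dose. Cd163, the scavenger receptor that takes up haemoglobin bound to haptoglobin, was at 6.14, 5.94 and 5.95 in the vehicle rats, 5.56, 6.25 and 6.66 in the 30 mg/kg rats, 6.86, 6.28 and 6.16 in those given 100 mg/kg and 6.24, 5.77 and 6.35 in those given 200 mg/kg. At 100 mg/kg all 3 rats lay above the vehicle rats by 0.42 on average (adjusted p = 0.896, limma), but at 200 mg/kg the difference was 0.11 and the groups overlapped.

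Clec4f, a lectin found on Kupffer cells in rodents, had mean levels of 9.66 ± 0.27, 9.53 ± 0.17, 9.39 ± 0.19 and 9.67 ± 0.13 (± SD, n = 3) in the vehicle, 30, 100 and 200 mg/kg groups. Its differences were -0.12, -0.27 and 0.02 with overlap at each dose, and the interval at 200 mg/kg ran from -0.29 to 0.32. Adgre1, which encodes a surface antigen of rodent macrophages, was at 5.76 ± 0.46, 5.64 ± 0.60, 5.66 ± 0.23 and 5.77 ± 0.24 in the same order, and Lyz2, the macrophage lysozyme, at 8.34 ± 0.08, 8.26 ± 0.47, 8.29 ± 0.25 and 8.31 ± 0.43. Neither passed the test at any dose, and at 200 mg/kg their differences were 0.01 and -0.03. Ptprc, which encodes CD45 on the surface of all leukocytes, was at 6.08 ± 0.28, 6.18 ± 0.32, 6.02 ± 0.18 and 6.34 ± 0.42, and the 3 differences were 0.11, -0.06 and 0.26.

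**Figure D3:**
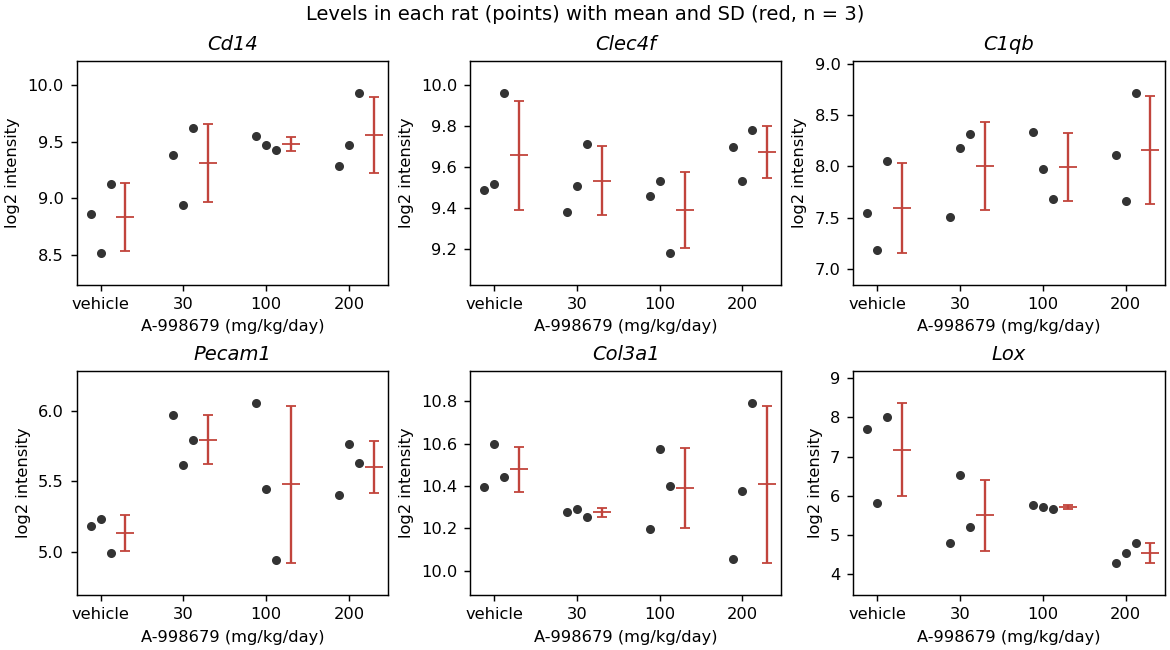
Log2 intensity (vertical axis, a separate range for each gene) of Cd14, Clec4f, C1qb, Pecam1, Col3a1 and Lox in each rat by dose (horizontal axis, mg/kg/day), with the group mean and SD in red, n = 3. Cd14 is above the vehicle rats in all rats at 100 and 200 mg/kg, Clec4f and C1qb overlap between groups, and Lox is below the vehicle rats in all rats at 100 and 200 mg/kg.

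As a class the 9 macrophage genes had median differences of -0.06, -0.07 and 0.13 at the 3 doses in rising order, against -0.003, 0.005 and -0.001 over all probe sets tested. At 200 mg/kg 8 of the 9 genes were above the vehicle mean, Lyz2 being the exception. The median at 200 mg/kg rested on 1 rat, since rat 3 of that group had the highest value of all 12 rats in 5 of the 9 genes, and without it the median was -0.001. Over fits leaving out 1 rat the median took both signs at 30 mg/kg (-0.10 to 0.13) and at 100 mg/kg (-0.21 to 0.05). Averaged over the 9 genes its level was 0.58 above the vehicle mean, while the other 200 mg/kg rats were at 0.13 and -0.03 and the vehicle rats at -0.04, -0.18 and 0.22. In the same liver Ptprc was 0.74 above the vehicle mean, the highest of the 12, and the summed intensity of 5 erythroid genes was 5052 units against 2575 and 1959 in the other 200 mg/kg rats and 3194 to 5463 in the vehicle rats. That sum rests mostly on Hbb, at 12.24 in rat 3 against 11.28 and 10.87 in the other 200 mg/kg rats. Alas2 was also higher in rat 3 (7.51 against 6.18 and 5.78), and Slc4a1 was lower (4.21 against 4.45 and 4.70). Ahsp and Epb42 were empty in rat 3. Hepatocyte genes were lower at 200 mg/kg than in vehicle in 11 of 11 cases (median -0.22). Over all probe sets tested, 13537 of 26999 were lower. Of the 11 genes, 5 were lower at an unadjusted p under 0.05 in limma (4.34% of all probe sets) and 0 were called. Their summed intensity was 49662 to 59843 units against 59422 to 63707 in the vehicle rats. Their part in the macrophage values was not tested.

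Of 20 further macrophage genes 14 were on the array, and 0 of the 14 passed in any comparison of limma's fit (1 of 13 tested was higher at an unadjusted p under 0.05, Ctss at 200 mg/kg, against 4.39% of all probe sets). The 3 with the smallest p were Ctss, Mpeg1 and Cd74. Ctss, a lysosomal protease of antigen-presenting cells, had means of 8.67 ± 0.19, 8.80 ± 0.17, 8.62 ± 0.21 and 9.13 ± 0.34 and a difference of 0.46 at 200 mg/kg (adjusted p = 0.409, limma). Mpeg1, a pore-forming protein of phagocytes, had means of 10.69 ± 0.18, 10.51 ± 0.24, 10.40 ± 0.32 and 10.51 ± 0.29, and Cd74, the chaperone of class II histocompatibility molecules, means of 9.10 ± 0.40, 9.39 ± 0.32, 9.14 ± 0.10 and 9.46 ± 0.40. No dose passed the test in these genes.

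Pecam1, the adhesion molecule CD31 of endothelial junctions, had the lowest p of the endothelial genes. Its level was 5.18, 5.23 and 4.99 in the vehicle rats, 5.97, 5.62 and 5.80 in the 30 mg/kg rats, 6.05, 5.45 and 4.94 in those given 100 mg/kg and 5.41, 5.77 and 5.63 in those given 200 mg/kg. At 30 and 200 mg/kg each rat lay above the vehicle rats, and at 100 mg/kg the rats spread from below to above all other groups, with rat 3 the lowest and rat 1 the highest of the 12. The differences were 0.66 (SE 0.26), 0.35 and 0.47 in rising order of dose (adjusted p = 0.95, 0.913 and 0.667, limma). No order with dose is visible in them.

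With the chosen probe sets, Kdr and Lyve1 had the narrowest intervals of the list. Kdr, the main receptor for vascular endothelial growth factor, was at 9.76, 9.52 and 9.54 in the vehicle rats, 9.73, 9.68 and 9.57 in the 30 mg/kg rats, 9.57, 9.51 and 9.49 in those given 100 mg/kg and 9.41, 9.73 and 9.70 in those given 200 mg/kg. Its differences were 0.05, -0.09 and 0.01, the last with an interval from -0.21 to 0.23. The second probe set of Kdr was dimmer and had differences of 0.36, 0.46 and -0.03. At 100 mg/kg all its rats were above the vehicle rats (interval -0.16 to 1.08, adjusted p = 0.896, limma). The 2 probe sets did not follow each other over the 12 rats (r = -0.06). Lyve1, a hyaluronan receptor of sinusoidal and lymphatic endothelium, was at 8.75, 8.62 and 8.58 in the vehicle rats, 8.82, 8.80 and 8.72 in the 30 mg/kg rats, 8.84, 8.74 and 8.63 in those given 100 mg/kg and 8.51, 8.84 and 8.78 in those given 200 mg/kg. All 12 rats lay within a narrow band, and the difference at 200 mg/kg was 0.06 (interval -0.16 to 0.28).

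Tek, the receptor for angiopoietins, was at 6.64, 6.76 and 6.72 in the vehicle rats, 6.90, 6.82 and 6.83 in the 30 mg/kg rats, 6.58, 7.03 and 6.83 in those given 100 mg/kg and 6.66, 6.89 and 6.64 in those given 200 mg/kg. At 30 mg/kg the 3 rats were all above vehicle, by 0.14 on average (adjusted p = 0.97, limma), and at the higher doses the groups overlapped. Stab1 and Stab2, the scavenger receptors of sinusoidal cells (Stab1 is also made by macrophages), had means of 6.46 ± 0.12, 6.32 ± 0.28, 6.43 ± 0.39 and 6.39 ± 0.27 and of 7.24 ± 0.49, 7.43 ± 0.29, 7.14 ± 0.31 and 7.46 ± 0.12 in the order vehicle, 30, 100 and 200 mg/kg. Eng, a co-receptor for transforming growth factor β, had means of 7.65 ± 0.19, 7.35 ± 0.35, 7.66 ± 0.03 and 7.57 ± 0.27. In these 3 genes every dose group overlapped vehicle. Vwf, the clotting factor of larger vessels, had a value in 6 of the 12 rats, every one of them below the floor, so that it gives no measure of those vessels.

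The median difference of the 7 measured endothelial genes was 0.13, 0.00 and 0.02 at 30, 100 and 200 mg/kg. Over fits leaving out 1 rat it took both signs at 100 mg/kg (-0.02 to 0.10) and at 200 mg/kg (-0.01 to 0.11). Of 23 further endothelial genes 20 were on the array, and 0 of 20 passed. An unadjusted p under 0.05 was found for 1 of the 20 at each dose, higher at 30 mg/kg (2.39% of all probe sets) and 200 mg/kg (4.39%) and lower at 100 mg/kg (2.8%). The 3 with the smallest p were Gpr182, an atypical chemokine receptor, Plvap, a diaphragm protein of fenestrae, and Fcgr2b, an inhibitory receptor for immunoglobulin that sinusoidal cells use to clear immune complexes. Gpr182 had means of 6.64 ± 0.20, 7.0 ± 0.05, 6.82 ± 0.18 and 6.75 ± 0.23 and a difference of 0.36 at 30 mg/kg (adjusted p = 0.967, limma). Plvap had means of 5.34 ± 0.18, 4.60 ± 0.52, 4.55 ± 0.52 and 5.08 ± 0.43 and a difference of -0.79 at 100 mg/kg (adjusted p = 0.822), and Fcgr2b means of 8.50 ± 0.31, 8.68 ± 0.07, 8.60 ± 0.06 and 8.78 ± 0.07 and a difference of 0.27 at 200 mg/kg (adjusted p = 0.566). The differences of these 3 genes had different signs, and the genes had their smallest p at different doses.

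Fibrillar collagens, which activated stellate cells and portal fibroblasts make, did not pass the test at any dose. Col3a1, collagen type III, was at 10.40, 10.60 and 10.44 in the vehicle rats, 10.28, 10.29 and 10.25 in the 30 mg/kg rats, 10.20, 10.57 and 10.40 in those given 100 mg/kg and 10.05, 10.38 and 10.79 in those given 200 mg/kg. The 30 mg/kg rats were all slightly below the vehicle rats, with a mean difference of -0.20 (adjusted p = 0.967, limma), and at 200 mg/kg rat 1 was the lowest and rat 3 the highest of the 12. Col1a1, the first chain of collagen type I, had means of 6.28 ± 0.38, 5.98 ± 0.38, 6.45 ± 0.30 and 6.22 ± 0.22, and Col1a2, the second chain, means of 7.02 ± 0.38, 6.74 ± 0.26, 7.15 ± 0.57 and 6.90 ± 0.43. For Col1a1 the probe sets differed at 30 mg/kg. The chosen one had a difference of -0.29 with overlap. The other had -1.07 (interval -2.22 to 0.08, adjusted p = 0.967, limma), with all rats below the vehicle rats. At 100 and 200 mg/kg the other probe set overlapped vehicle, with differences of -0.08 and -0.12. With the chosen probe sets the differences at 200 mg/kg were -0.05 for Col1a1, -0.12 for Col1a2 and -0.07 for Col3a1. For Col3a1 the interval ran from -0.40 to 0.25.

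Timp1, an inhibitor of matrix metalloproteinases, was at 5.40, 5.13 and 5.48 in the vehicle rats, 6.14, 5.81 and 5.49 in the 30 mg/kg rats, 5.00, 6.40 and 5.74 in those given 100 mg/kg and 5.49, 5.11 and 5.96 in those given 200 mg/kg. All 3 rats at 30 mg/kg were above the vehicle rats, with a difference of 0.48 (adjusted p = 0.967, limma), whereas 1 rat at 100 mg/kg and 1 at 200 mg/kg were below every vehicle rat. Dcn, the matrix proteoglycan decorin, was at 6.18, 5.88 and 6.24 in the vehicle rats, 7.07, 4.76 and 6.23 in the 30 mg/kg rats, 5.58, 6.94 and 6.71 in those given 100 mg/kg and 7.07, 6.09 and 7.75 in those given 200 mg/kg. It had the largest difference of the 30 genes at 200 mg/kg (0.87, SE 0.53, adjusted p = 0.702) and a wide spread, since the 200 mg/kg rats ran from 6.09 to 7.75 and rat 2 lay among the vehicle rats.

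Markers of quiescent and contractile cells gave no common direction. Lrat, which esterifies vitamin A for storage, had means of 6.19 ± 0.64, 6.39 ± 0.41, 6.39 ± 0.20 and 6.31 ± 0.94, and Des, the intermediate filament desmin, means of 5.34 ± 0.15, 5.35 ± 0.17, 5.05 ± 0.24 and 5.33 ± 0.13. Acta2, the smooth muscle actin of activated stellate cells and vessel walls, had means of 5.67 ± 0.57, 5.43 ± 0.57, 6.22 ± 0.82 and 5.76 ± 0.82. Pdgfrb, the receptor for platelet-derived growth factor B, had means of 5.20 ± 0.88, 5.13 ± 0.16, 5.05 ± 0.05 and 5.24 ± 0.11, and Rgs5, a pericyte regulator of G protein signalling, means of 4.50 ± 0.47, 4.51 ± 0.74, 4.54 ± 0.30 and 4.51 ± 0.36. At 200 mg/kg the differences of these 5 genes were 0.12, -0.01, 0.09, 0.04 and 0.01. For Pdgfrb the vehicle rats (5.99, 5.37 and 4.24) were farther apart than the 9 treated rats, which lay between 4.97 and 5.35. Lum, the proteoglycan lumican, was dim, with 11 values of which 4 were below the floor. The class median over the 10 measured genes was -0.07, 0.15 and 0.02 at 30, 100 and 200 mg/kg. Its sign depended on single rats at each dose: over fits leaving out 1 rat it ran from -0.19 (without vehicle rat 3) to 0.03 (without 30 mg/kg rat 2), from -0.03 (without 100 mg/kg rat 2) to 0.28 (without 100 mg/kg rat 1) and from -0.13 (without vehicle rat 3) to 0.11 (without vehicle rat 2).

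Of 27 further stellate cell and matrix genes 23 were on the array, and 0 passed the adjusted threshold in limma. Of the 22 tested, 3 had an unadjusted p under 0.05 with 30 mg/kg, 1 of them higher (2.39% of all probe sets) and 2 lower (2.72% of all). With 100 mg/kg there were 6, 2 of them higher (3.18% of all) and 4 lower (2.8% of all), and with the top dose 2, both lower (4.34% of all). The gene nearest to the adjusted threshold was Lox, lysyl oxidase, the enzyme that cross-links collagen and elastin. Lox was at 7.72, 5.81 and 8.0 in the vehicle rats, 4.79, 6.52 and 5.20 in the 30 mg/kg rats, 5.75, 5.72 and 5.65 in those given 100 mg/kg and 4.29, 4.54 and 4.80 in those given 200 mg/kg. All rats at 100 and 200 mg/kg lay below the lowest vehicle rat, at 30 mg/kg rat 2 overlapped, and vehicle rat 2 lay about as low as the 100 mg/kg rats. In limma the difference from vehicle was -1.67 with 30 mg/kg (adjusted p = 0.92) and -1.47 with 100 mg/kg (adjusted p = 0.718). With 200 mg/kg it was -2.63, which is 0.161 times the vehicle level (adjusted p = 0.061). Whether it is called turned on single rats: without vehicle rat 2 the difference at 200 mg/kg was -3.32 with an adjusted p of 0.00751, without 30 mg/kg rat 2 the adjusted p was 0.033, and over all fits leaving out 1 rat it ran up to 0.21.

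Next to Lox by p were Pdgfra and Igfbp3. Pdgfra, a growth factor receptor of fibroblasts and stellate cells, had means of 6.30 ± 0.17, 6.66 ± 0.26, 6.72 ± 0.09 and 6.41 ± 0.13 and a difference of 0.42 at 100 mg/kg (adjusted p = 0.771, limma). Igfbp3, which binds insulin-like growth factors and is made in rat liver by non-parenchymal cells, had means of 8.93 ± 0.11, 9.09 ± 0.20, 8.28 ± 0.37 and 8.52 ± 0.59 and a difference of -0.65 at 100 mg/kg (adjusted p = 0.776). Like Lox, neither passed, and unlike Lox both were closer to vehicle at 200 than at 100 mg/kg.

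Bile duct genes were few. Epcam, an adhesion molecule of bile duct epithelium, was at 6.58, 6.66 and 6.57 in the vehicle rats, 7.01, 6.26 and 6.77 in the 30 mg/kg rats, 6.83, 6.76 and 6.87 in those given 100 mg/kg and 6.78, 6.66 and 6.97 in those given 200 mg/kg. At 100 and 200 mg/kg each rat lay above the vehicle rats, which lay close together, but the differences were small (0.22 and 0.20, adjusted p = 0.917 and 0.813, limma) and the 30 mg/kg rats reached from below to above all of them. At 200 mg/kg rat 2 was only just above vehicle rat 2 (6.660 against 6.657). Spp1, the secreted phosphoprotein osteopontin, was at 5.59, 3.10 and 4.85 in the vehicle rats, 5.36, 5.50 and 4.97 in the 30 mg/kg rats, 6.03, 6.28 and 3.45 in those given 100 mg/kg and 4.57, 4.22 and 4.07 in those given 200 mg/kg. Its vehicle rats alone differed by more than 2 on the log2 scale, so no dose could be set apart. Krt19, a keratin of bile duct cells, was below the floor in 7 of 12 rats. Its level was 2.69, 3.69 and -0.19 in the vehicle rats, 3.77, 2.36 and 4.30 in the 30 mg/kg rats, 4.06, 4.70 and 3.87 in those given 100 mg/kg and 1.55, 1.92 and 4.78 in those given 200 mg/kg. All 3 rats at 100 mg/kg were above the floor and all 3 vehicle rats below it, while the other doses overlapped vehicle. The fitted difference at 100 mg/kg was 2.15 with a 95% interval from -0.07 to 4.37 (adjusted p = 0.844, limma), and its size rests on vehicle values below the floor. Of 15 further bile duct genes 10 were on the array and 2 of these had a value in all rats and a mean above the floor. Those with the smallest p were Cd24 and Cftr, both with empty values and means below the floor, and Slc10a2, the bile acid transporter of bile duct cells and ileum, whose means were 5.62 ± 0.56, 5.31 ± 0.28, 5.57 ± 0.24 and 5.06 ± 0.29 (difference of -0.57 at 200 mg/kg, adjusted p = 0.625).

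Of the lymphocyte genes, Cd8a and Cd79b were mostly below the floor. Cd3e, a chain of the T cell receptor complex, was at 6.17, 5.54 and 3.59 in the vehicle rats, 6.19, 4.70 and 5.78 in the 30 mg/kg rats, 5.32, 5.90 and 5.75 in those given 100 mg/kg and 5.93, 5.67 and 5.79 in those given 200 mg/kg. Vehicle rat 3 was the lowest of the 12, the treated groups overlapped the other vehicle rats, and the difference at 200 mg/kg was 0.70 (adjusted p = 0.784, limma). Cd8a, the co-receptor of cytotoxic T cells, had 11 values, all below the floor. Cd79b, a chain of the B cell receptor, was at 0.64, 1.66 and empty in the vehicle rats, empty, 4.22 and 1.26 in the 30 mg/kg rats, 4.00, 4.08 and 4.11 in those given 100 mg/kg and 3.46, 1.72 and 3.21 in those given 200 mg/kg. The 3 rats at 100 mg/kg were alike and were above the floor, and the measured vehicle values were below it, which gave a fitted difference of 2.91 (adjusted p = 0.694, limma) that fell to 0.22 once empty and dim values were set to the floor. Of 27 further lymphocyte genes 22 were on the array and 0 passed (of 21 tested at each of the lower doses and 22 at the top one, p before adjustment was under 0.05 for 0, 1 and 1, each higher, against 2.39%, 3.18% and 4.39% of all probe sets). A value in all rats and a mean above the floor were found for 15 of these genes. Below vehicle were 10, 12 and 11 of the 15 at 30, 100 and 200 mg/kg. Their median differences were -0.05, -0.14 and -0.12, against -0.003, 0.005 and -0.001 over all probe sets tested. Cd8b, the second chain of the CD8 co-receptor, and Gzmb, a protease of cytotoxic granules, had means of 0.44 ± 0.09, 2.67 ± 3.78, 3.96 ± 1.35 and 3.00 ± 0.23 and of 4.40 ± 0.72, 2.99 ± 1.42, 3.38 ± 0.69 and 3.49 ± 0.51, most of them under the floor (1 value was empty for Cd8b). Ltb, a cytokine of lymphocytes, had means of 3.14 ± 0.68, 3.81 ± 0.21, 3.81 ± 0.66 and 4.34 ± 0.84, of which only the last was above the floor. Its difference from vehicle had an adjusted p of 0.557 at 200 mg/kg (limma).

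Levels also varied between rats of the same dose, and some genes varied together. To compare livers apart from dose, the mean of each dose group was taken from each gene, and the deviations were correlated over the 12 rats, with an exact test over the 1296 rearrangements of rats within groups (2-sided, smallest possible p = 0.00077) and adjustment over the 435 pairs of the 30 genes. All values of a rat come from the same RNA and array, so shared effects of either are part of every correlation. Among the 36 pairs of macrophage genes the median r was 0.60 and 30.6% were above 0.7. Among the endothelial genes the median was 0.15, among the stellate cell genes 0.10, and over pairs of 18078 probe sets it was 0.001, with 2.06% above 0.7. After adjustment 0 of the 435 pairs had a p under 0.05 in the exact test. That count could hardly differ from 0, since several pairs must tie at the smallest possible p before any passes. Even the pairs at that p had an adjusted p of 0.112, so the count says little about the genes.

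**Figure D4:**
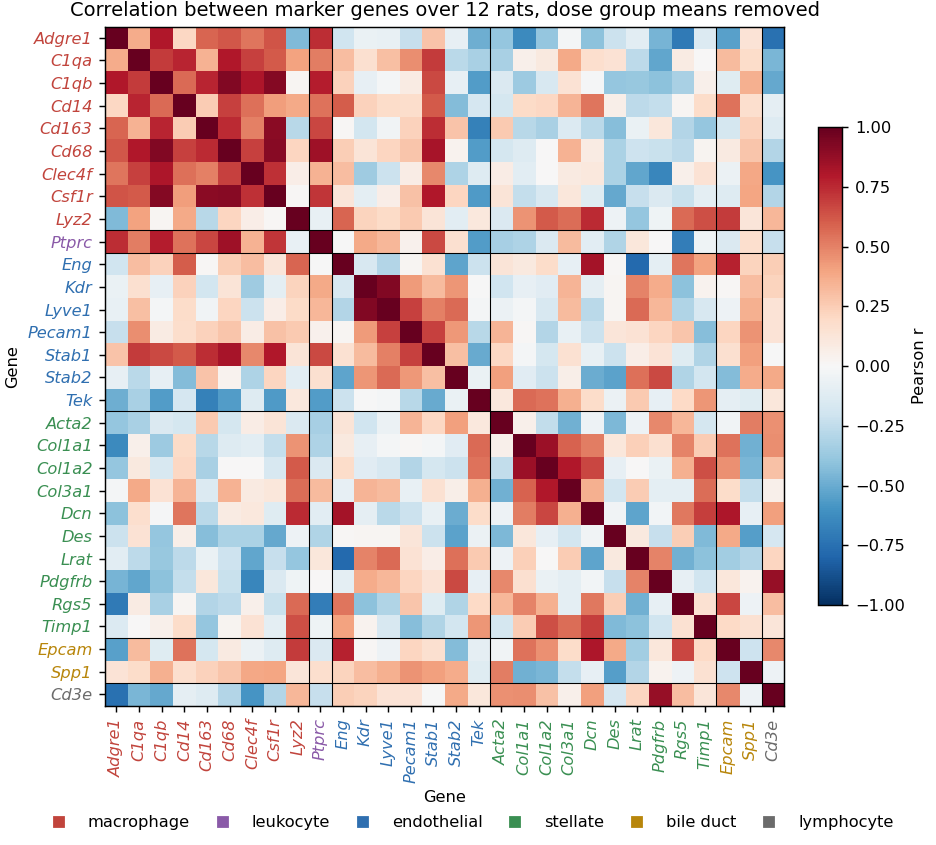
Pearson r of each pair of the 30 marker genes over the 12 rats after the mean of each dose group was removed (colour from -1, blue, to 1, red), with gene labels coloured by cell class. The macrophage genes other than Lyz2 form a red block of uneven strength at the upper left (median r of 0.60 over the 9 genes, 30.6% of pairs above 0.7). Within it Cd14 and C1qa are paler with Cd163 and Adgre1. The block extends to Ptprc and Stab1, and smaller red blocks hold Kdr with Lyve1 and the 3 collagens.

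The tightest group was Cd68, Csf1r and C1qb. Cd68 and C1qb had r = 0.93 and Spearman's rho = 0.94 (exact permutation p = 0.00077 for each, adjusted p = 0.112), and r was 0.92 without the 2 rats farthest from the median in Cd68. Csf1r and C1qb had r = 0.92 and rho = 0.94, and Cd68 and Csf1r had r = 0.91 and rho = 0.95, with the same exact permutation p-values, and r was 0.91 and 0.89 without the 2 farthest rats. The block included Ptprc and the endothelial and macrophage receptor Stab1, and Lyz2 lay outside it. Ptprc with Cd68 had r = 0.85 and rho = 0.80 (exact permutation p = 0.0154 and 0.0131, adjusted p = 0.384 and 0.403), and Stab1 with Cd68 had r = 0.83 and rho = 0.82 (exact permutation p = 0.00926 and 0.0123, adjusted p = 0.312 and 0.403). Without the 2 farthest rats r was 0.73 for both. Leaving out 200 mg/kg rat 3, where most of these genes peak, lowered the median r within the class from 0.60 to 0.51, and over all fits leaving out 1 rat it lay between 0.51 and 0.69.

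Outside the macrophages, Kdr and Lyve1 went together (r = 0.92, rho = 0.88, exact permutation p = 0.00231 for both, adjusted p = 0.252 and 0.201), with r = 0.87 without the 2 farthest rats. This rested on the probe set chosen, since r was 0.63 with the second probe set of Lyve1 and -0.16 with that of Kdr. Col1a1 and Col1a2 had r = 0.85 and rho = 0.83 (exact permutation p = 0.00309 and 0.0116, adjusted p = 0.269 and 0.403), with r = 0.82 without the 2 farthest rats, and 0.66 to 0.85 in every combination of their probe sets. Pairs of different classes reached similar values, so a high r does not mark a shared cell type. Pdgfrb with Cd3e had r = 0.87 and Eng with Dcn r = 0.83 (0.53 and 0.61 without the 2 farthest rats). The share of pairs above 0.7 was 4.76% within the endothelial genes and also 4.76% between macrophage and endothelial genes. Of the pairs that went in opposite directions, Eng and Lrat were the farthest apart (r = -0.78, rho = -0.86, exact permutation p = 0.0131 and 0.00154, adjusted p = 0.357 and 0.168), with r = -0.72 without the 2 farthest rats.

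**Figure D5:**
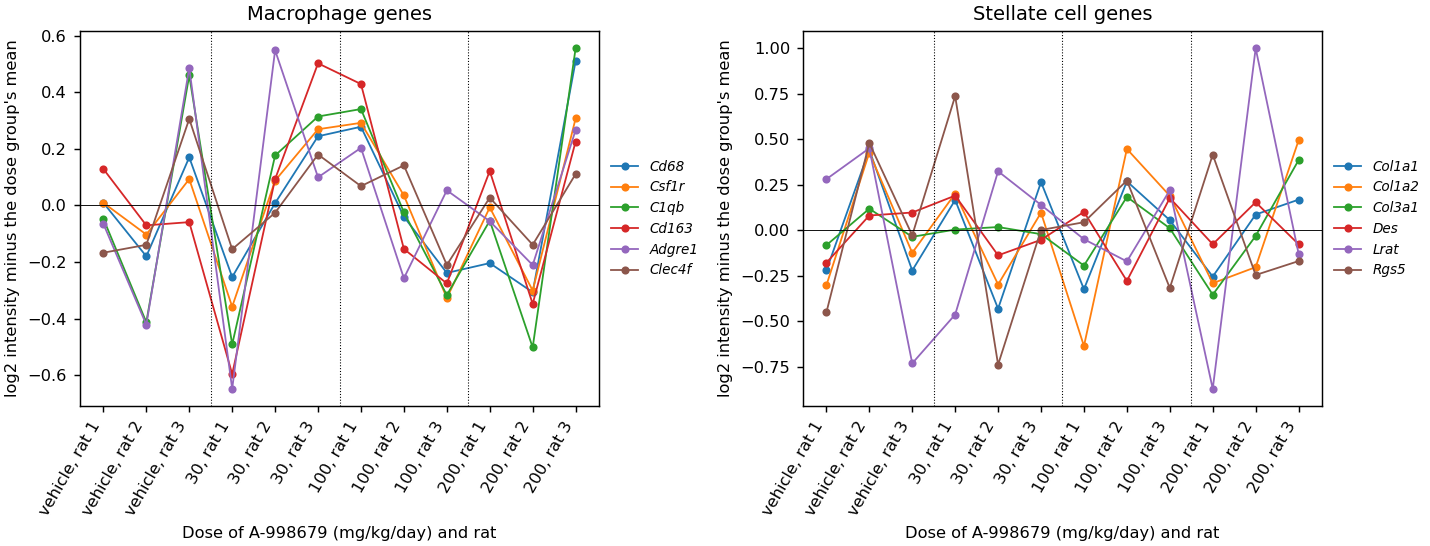
Deviation of 6 macrophage genes (left) and 6 stellate cell genes (right) from the mean of their dose group (vertical axis, log2) in each of the 12 rats (horizontal axis; dotted lines part the dose groups). Cd68, Csf1r and C1qb run nearly in parallel (r of 0.91 to 0.93) and all peak in 200 mg/kg rat 3, whereas on the right Col1a1 and Col1a2 run together (r = 0.85) while Lrat follows neither closely (r of 0.24 and 0.003).

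Because Cd68, Csf1r and C1qb varied together over rats, and Cd14 had the lowest p of the list, their promoters are shown. They are 300 bases each (spanning the start of the gene, RefSeq, GRCr8), printed 5′ to 3′ on the strand of the gene, and capitals mark the letters GAGGAA or, on the opposite strand, TTCCTC, the core box bound by PU.1, a transcription factor of macrophages. Positions are chr10:54882392-54882691, minus strand for Cd68, chr18:56834129-56834428, plus strand for Csf1r, chr5:154407778-154408077, minus strand for C1qb and chr18:28611109-28611408, minus strand for Cd14.
Cd68: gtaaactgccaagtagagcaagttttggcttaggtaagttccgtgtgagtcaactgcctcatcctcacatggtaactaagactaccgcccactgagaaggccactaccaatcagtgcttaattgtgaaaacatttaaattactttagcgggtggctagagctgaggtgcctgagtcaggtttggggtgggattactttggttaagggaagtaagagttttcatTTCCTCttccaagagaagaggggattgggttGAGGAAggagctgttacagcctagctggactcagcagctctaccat
Csf1r: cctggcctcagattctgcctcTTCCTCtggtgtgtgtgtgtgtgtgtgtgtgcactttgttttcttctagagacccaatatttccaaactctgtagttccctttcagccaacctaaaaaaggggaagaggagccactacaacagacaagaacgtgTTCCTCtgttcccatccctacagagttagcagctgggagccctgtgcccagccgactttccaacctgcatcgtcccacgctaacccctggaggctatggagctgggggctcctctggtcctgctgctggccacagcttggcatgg
C1qb: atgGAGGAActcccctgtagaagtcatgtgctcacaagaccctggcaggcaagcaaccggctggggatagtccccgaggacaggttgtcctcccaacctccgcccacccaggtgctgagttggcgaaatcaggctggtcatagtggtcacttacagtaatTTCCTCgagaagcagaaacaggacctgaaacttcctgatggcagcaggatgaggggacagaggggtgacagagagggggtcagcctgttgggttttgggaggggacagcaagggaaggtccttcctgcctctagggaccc
Cd14: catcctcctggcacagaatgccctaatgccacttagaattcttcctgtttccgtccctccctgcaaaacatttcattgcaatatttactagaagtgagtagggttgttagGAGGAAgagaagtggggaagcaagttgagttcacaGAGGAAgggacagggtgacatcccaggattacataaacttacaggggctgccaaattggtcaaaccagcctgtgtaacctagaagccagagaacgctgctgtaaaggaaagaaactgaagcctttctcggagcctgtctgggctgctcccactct

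Each of the 4 windows held 2 copies of the box. A promoter of this table was matched for 26 of the 35 genes, and the box was found in 13 of the 26, in 6 of the 9 macrophage genes and in 27.5% of all 27457 promoters of the same length. Of the macrophage genes, C1qa, Cd163 and Clec4f had none. These 3 also varied with the genes shown: r was 0.90 for Cd163 with Csf1r, 0.81 for Clec4f with C1qb and 0.80 for C1qa with Cd68. Adgre1, with 1 copy, had r = 0.80 with C1qb, and Lyz2, which lay outside the covarying block, held 1 copy too. Whether the box goes with the covariation was not tested. The box was also in 3 of 5 endothelial, 2 of 7 stellate cell, 0 of 2 bile duct and 1 of 2 lymphocyte promoters and in that of Ptprc. Stab1 and Rgs5 held 2 copies as well. The core of the AhR response element, GCGTG on either strand, was found in 7 of the 26 promoters, in 1 of the 9 macrophage genes (Csf1r) and in 31.1% of all promoters, and Cd14 had none. The motifs can share 1 base at most where they meet, and a match is a description of the letters in the window only.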

How the data were processed

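RNA from 12 rat livers was measured on 12 arrays, 3 per dose group, grouped by the sample titles. Intensities on a log10 scale, exported by the authors from Rosetta Resolver, were deposited for each probe set; the log base was read from the range of the values, and background correction, scaling and the reason for empty values were not given. A second deposited table holds the authors' own fold changes against vehicle and was not used. Values were converted to log2 without further normalization, and empty values were treated as missing. Symbols were updated through gene numbers in the RefSeq table of GRCr8. The limma package (3.58.1, R 4.3.3) was used to fit 1 mean per group (4 groups, 8 residual degrees of freedom, variance trend), with Benjamini-Hochberg adjustment over all probe sets tested at 0.05. The script was tested on simulated data. The number of arrays limits the precision. Members, lists and tests were chosen with earlier results of these data known. Named are all members and, of further markers, the 3 with the smallest p in each class. Alternatives covered normalization, the floor under empty and dim values, filters, array weights, variance models, fits of only 2 groups, the rat number as a block, a plain t-test (named in the methods for general statistics, while the arrays were tested there with the error model of Rosetta Resolver) and leaving out each rat.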

Additional observations from a re-analysis of the deposited data

How the results depend on the processing

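No member was called under any alternative judged by an adjusted p, including the fit with the rat number as a replicate block (0 members in each comparison). Rat numbers only name rats: deviations of same-numbered rats of different groups were correlated at -0.078 to 0.0762. A plain t-test, which the methods name for general statistics and not for the arrays, was run at an unadjusted p of at most 0.05. It passed 3 of 34 members at 30 mg/kg (Pecam1, Tek and Col3a1, against 4.74% of all probe sets), 3 of 34 at 100 mg/kg (Cd14, Epcam and Cd79b, against 6.54%), 2 of 34 at 200 mg/kg (Cd14 and Pecam1, against 8.07%) and 3 of 35 for the mean of the doses (Cd14, Pecam1 and Cd79b, against 6.2%), counts near those backgrounds. After Benjamini-Hochberg adjustment of that test 0 of these passed. In fits leaving out 1 rat, the endothelial median difference ran from 0.0136 to 0.150 at 30 mg/kg and from -0.0447 to 0.0996 for the mean of the doses, in both cases lowest without vehicle rat 3; no cause was tested. Lox, which is no member, passed at 200 mg/kg with array weights (adjusted p = 0.0495) and without vehicle rat 2 or 30 mg/kg rat 2, and for the mean of the doses without vehicle rat 2 (adjusted p = 0.0255). With 3 rats a group, intervals for dim or variable genes such as Spp1 include 2-fold changes.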
